A study of Mus musculus with 3 samples.

Results

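Transcripts of the centrosome, of tubulin and of the proteins that build, bind or travel along microtubules were followed in mouse four-cell embryos. They were taken by name from the scanner tables: centrosomal Cep genes, Pcnt, Pcm1 and Nin, alpha-, beta- and gamma-tubulins with the gamma-tubulin complex, tubulin folding cofactors, Nek kinases, Mapre, Stmn, Tacc and Ckap5 genes, and the subunits of dynein and dynactin. The arrays carried 146 probes for 76 such genes among 41174 non-control probes. Of these, 45 probes for 37 genes were bright enough to test, among 8590 tested probes in all, and the other 39 genes gave no tested probe. Testing required that the scanner software call the probe well above background on 2 or more of the 3 arrays, within 1 channel.

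The study compared four-cell embryos from oocytes exposed to hydrostatic pressure (HP; 20 MPa, lasting 60 min, at 37 °C) with embryos from oocytes held alongside without pressure. Both kinds of oocyte were then fertilised by sperm injection (ICSI) per the sample labels, while the series title speaks of in vitro fertilisation, and strain and age are not given in the sources used here. The HP pools held 44, 30 and 37 embryos in replicates 1, 2 and 3, and the control pools 36, 33 and 24. Each array carried 1 HP pool in Cy5 and 1 control pool in Cy3 with the same replicate number, after amplification from 240 pg of total RNA. Dye and pressure therefore run together on every array and cannot be told apart. Each sample is a pool, so fewer embryos or cells with a transcript and less of it per cell also cannot be told apart.

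Microtubules are hollow polymers of alpha- and beta-tubulin dimers. New ones are started by gamma-tubulin complexes, which centrosomal scaffolds such as pericentrin anchor. Dynein walks along microtubules with the help of dynactin and carries cargo and centrosomal proteins inward. Cleavage-stage mouse embryos are unusual in that they divide without centrioles, from scattered microtubule-organizing material that still uses many centrosomal proteins.

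The probes are 60 bases long, and those shown here belong to the genes with the lowest p. A stretch of 30 bases is given for each, 5′ to 3′, as the array tables list it, with the array design's mm7 position of the probe. Capitals mark the hexamer AATAAA, the usual signal for cleavage and polyadenylation near the end of a transcript. The stretches without capitals are the first 30 bases of probes that hold neither AATAAA nor ATTAAA.
Pcnt, chr10:76007053-76007112, minus strand: tgcttgctttcttagcgtgtcaggatggga
Nin, chr12:67959984-67960043, minus strand: gttaaagccttcacagtattgtctcttact
Dctn3, chr4:41853415-41853474, minus strand: tattccagtgacAATAAActtgaacgacca
Cep57, chr9:13645449-13645508, minus strand: ggtatatatgtaaattgggtttgaaaattc
Tuba1c, chr15:99023456-99023515, plus strand: tcctaaactgtcAATAAAggtgtttccgtt
Nek1, chr8:59522663-59522722, plus strand: gtgaggatttaaccaggttattacaatgat
Mapre1 (A_52_P321225), chr2:153509112-153509171, plus strand: cttatgctgtgtgtaggaaacaggtatttt
Mapre1 (A_51_P375714), chr2:153508326-153508385, plus strand: tgcttgaatcttatagatgtcgactttggc

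Searched on the listed strand only, 5 of 45 tested member probes (11.1%) held AATAAA or ATTAAA, against 9 of 101 untested ones (8.91%), 10.2% of the other tested probes and 6.77% of the other untested probes, or 7.49% of all probes on the array. Besides Tuba1c and Dctn3, the tested probes with a hexamer were 1 of each of Dctn5, Cep63 and Cep164. The gene annotation around the probes was not examined, since no sequence of the mm7 build was used.

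Before the comparison, some facts on the libraries bear on every value. The HP pools of replicates 2 and 3 were close to each other. The SD of their difference in log2 signal was 0.229 over all tested probes and 0.202 over the 45 members, against 0.451 to 0.535 (members 0.273 to 0.480) for the other pairs of like pools. Well above background were 17.5% to 19.8% of all probes in the HP channel and 18.5% to 23.1% in the control channel. For the members this was 45, 40 and 39 of 146 in the HP pools and 45, 49 and 40 in the control pools of replicates 1, 2 and 3. Of 7 embryo and oocyte markers, Zp3, Dppa3 and Gdf9 were above background in all pools of both groups, at mean log2 ratios of 0.01, 0.24 and 0.96, while Nlrp5, Ooep and Zar1 were in none and Pou5f1 in 1 control pool. The summed marker signal ran from 7792 to 11543 in HP pools and from 6960 to 8568 in control pools. Of 9 cumulus and granulosa cell markers, 8 were above background in no pool (Ptx3 in 1 HP and 1 control pool; sums of 698 to 711 and 706 to 713). Of 7 sperm markers 5 were in none, while Prm1 was in 2 HP and 3 control pools and Prm2 in 1 control pool (561 to 579 and 573 to 589). Of 4 trophectoderm markers Krt8 and Gata3 were in none, while Cdx2 was in 1 control pool and Krt18 in 1 HP and 1 control pool (306 to 343 and 329 to 337). Their part in the results below was not tested.

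No member passed adjustment. With limma, 0 of 45 members had an adjusted p under 0.05, as did 0% of all 8590 tested probes, and the lowest adjusted p was 0.182 for both. At an unadjusted limma p under 0.05, 3 members were higher in HP (6.67%, against 6.9% of all tested probes) and 4 were lower (8.89%, against 10.7%). Both shares lie near those of the array as a whole, so these counts set the members apart in neither direction. Pcnt, Nin, Dctn3 and Mapre1 make up the lower side, and Cep57, Tuba1c and Nek1 the higher side. On all 3 arrays 15 members were above 0 (33.3%, against 22.5%) and 11 below 0 (24.4%, against 25.2%). Those above 0 include a Tubb5 and a Tacc1 probe that entered the test only through the HP pools. Those below 0 include Tubb2b, Dctn6, a Dctn5 probe and another Tacc1 probe, which entered only through the control pools. The signs of such probes are no measure of direction. No member was 2-fold different on every array, against 0.373% of all tested probes.

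Log2 ratios are HP over control after loess normalization, given as mean ± limma's moderated standard error, with n = 3 arrays. Moderation draws this error towards that of all tested probes, so it is not the plain scatter of the arrays. For Pcnt it was 0.10, beside an SD over the arrays of 0.03. The median over members was 0.04 (−0.04, 0.07 and 0.01 on replicates 1, 2 and 3), beside −0.02 for all tested probes. With loess and an offset of 50 added to the signals, most members differed little, with 62.2% of them within 0.25 of 0 against 53.8% of all tested probes. This share depends on the processing. With the scanner software's ratio, dim probes such as Nek2 went from 0.15 to 1.16 and Dctn6 from −0.15 to −1.73. Nin, a brighter probe, went only from −0.96 to −1.04. Signs above 0 depended on the scaling. Median centring of each array in place of loess left all tested probes at a median of −0.37. The members' median was then −0.27 and 3 of 45 members stood above 0, so that at an unadjusted p under 0.05 the split became 0 higher and 14 lower. Of those 14, 5 passed adjustment then (11.1% of the members), as did 13.8% of all tested probes. They were Pcnt, Nin, Dctn3, Mapre1 and Dync1i2.

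**Figure D1:**
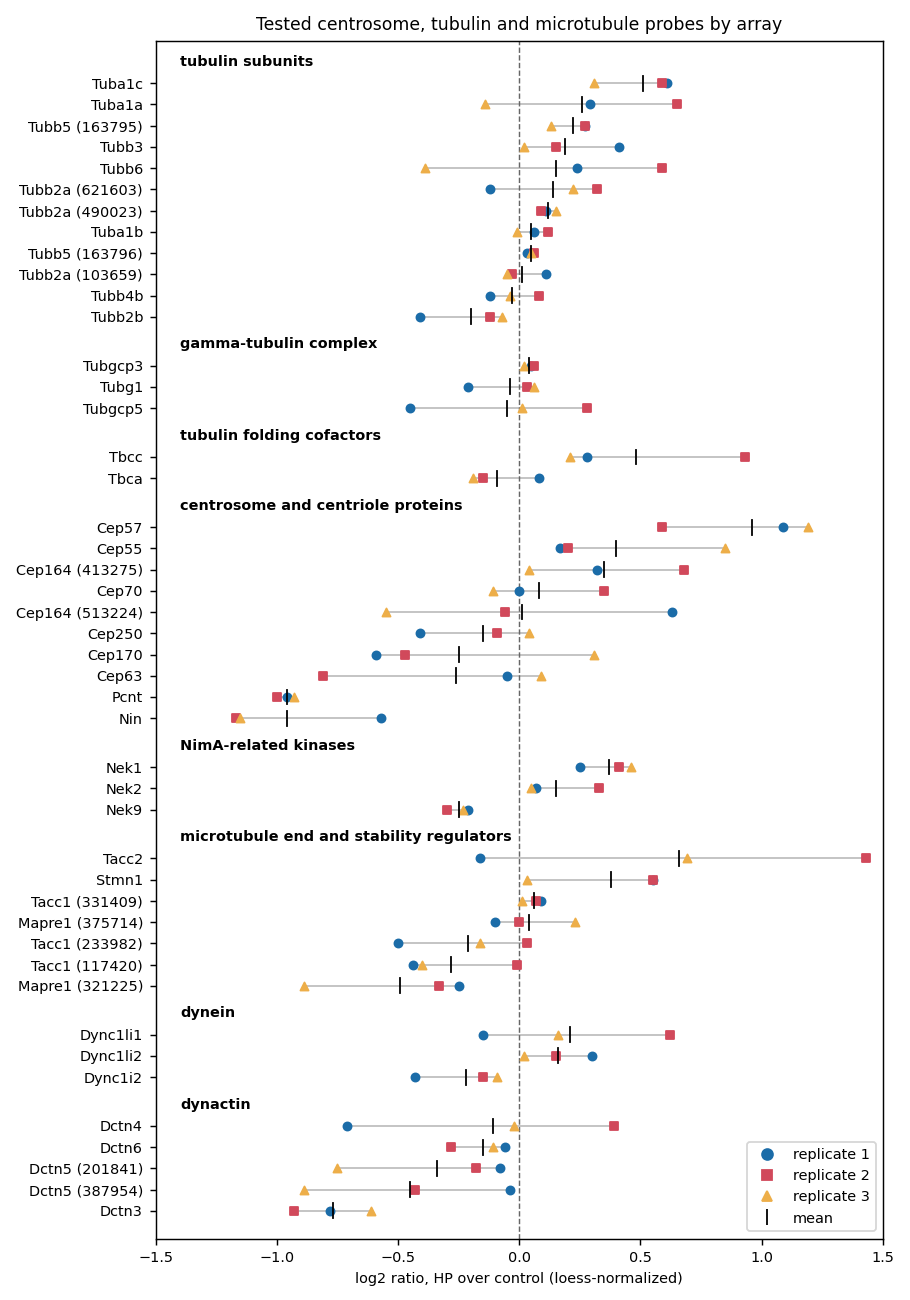
Log2 ratio of HP over control (x axis, loess-normalized) for each of the 45 tested probes, grouped by role. Coloured symbols are the 3 arrays and the black tick their mean, and the digits after a repeated gene name tell its probes apart. Pcnt stands near −0.96 on every array, and Tacc2 spreads most widely, from −0.16 to 1.43.

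The centrosomal scaffolds held the lowest values of all members. Pcnt encodes pericentrin, the scaffold that gathers gamma-tubulin complexes around the centrosome. Its log2 signal was 8.46, 8.45 and 8.55 in the control pools and 7.49, 7.46 and 7.62 in the HP pools of replicates 1, 2 and 3. Every HP pool lay below every control pool, and the replicates nearly coincided. The log2 ratio was −0.96 ± 0.10, or 1.95-fold lower in HP (limma adjusted p = 0.182). The value was largest with median centring, at −1.64 against −0.37 for all probes. A second Pcnt probe was not above background in any pool.

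Nin encodes ninein, which holds the minus ends of microtubules at the centrosome. Its log2 signal was 10.78, 10.96 and 11.03 in the control pools and 10.22, 9.79 and 9.88 in the HP pools. The pools did not overlap, and replicate 1 differed least. Its mean log2 ratio was −0.96 ± 0.17, or 1.95-fold lower in HP (limma adjusted p = 0.182), and −1.92 with median centring. Another Nin probe was above background in no pool.

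Cep57 went the other way. Its product is a pericentriolar protein that binds microtubules. The log2 signal was 6.98, 7.80 and 6.84 in the control pools and 8.07, 8.39 and 8.03 in the HP pools. All HP pools were above all control pools, although the control pool of replicate 2 came close to the HP pools. HP over control came to a log2 ratio of 0.96 ± 0.16, or 1.94-fold higher in HP (limma adjusted p = 0.182). It stayed above 0 with median centring, at 0.34, where its unadjusted p was no longer under 0.05, and reached 1.78 with the scanner software's own ratio.

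The other centrosomal and centriolar probes passed no threshold, and 5 of the 10 in this group had means below 0, with a group median of −0.07. Cep55, which acts at the midbody in the last step of cell division, was at 0.40 ± 0.18, with HP pools above control pools mainly through replicate 3 (0.17, 0.20 and 0.85). With median centring it was at −0.23, above the −0.37 of all tested probes. Cep164, of the distal appendages that dock a centriole for cilium formation, had a pair of tested probes. One gave 0.32, 0.68 and 0.04 on the arrays and the other 0.63, −0.06 and −0.55, so the second had no common direction. Cep63, a centriole duplication factor, was at −0.26 mainly through replicate 2 (−0.05, −0.81 and 0.09). Cep170, of the subdistal appendages, was at −0.25 with mixed signs (−0.59, −0.47 and 0.31), and Cep70, which binds gamma-tubulin, was at 0.08.

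Cep250 encodes the linker that ties the pair of centrioles together. Its probe was well above background in 3 of 3 control pools and in 0 of 3 HP pools. The arrays had mixed signs (−0.41, −0.09 and 0.04), with HP slightly above control on replicate 3. For a probe above background in no pool of a group, that group was taken as no dimmer than the lowest signal called above background. This floor lay no higher than the measured mean, here and for the other such probes. It therefore gave no bound, and only ratios of the measured means are given. By its measured means the control signal of Cep250 was 1.11-fold higher (6.56 and 6.41, limma adjusted p = 0.561). The probe entered the test only through the control pools, so its sign is no measure of direction. Such ratios compare normalized signals of different dyes and are open to dye bias. Of the 18 genes in this group 9 gave no tested probe, among them Cep110 (now Cntrl), Cep135 and Cep27 (now Haus2).

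**Figure D2:**
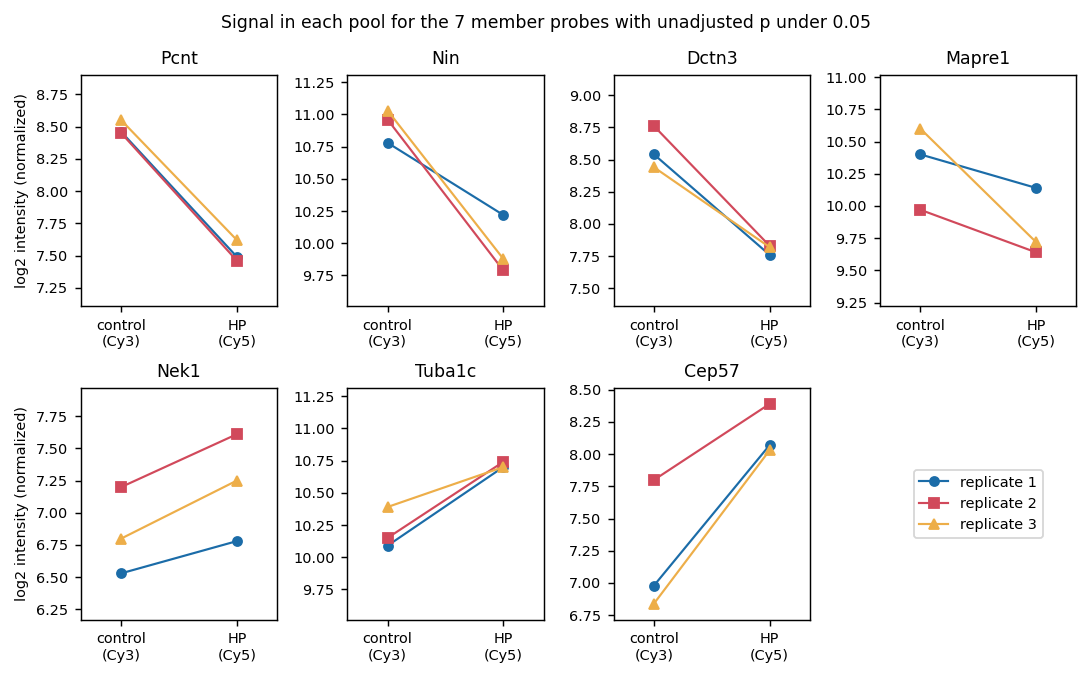
Normalized log2 intensity in the control and the HP pool of each array, joined by a line, for the 7 probes with an unadjusted p under 0.05. Each panel spans the same 1.8 log2 units, and levels are not comparable between panels. HP and control pools do not overlap for Pcnt, Nin, Dctn3, Tuba1c and Cep57, and do overlap for Mapre1 and Nek1.

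The tubulins gave small differences with loess and wider ones with the scanner software's ratio. Of 12 tested alpha- and beta-tubulin probes 10 had means above 0 with loess, with a median of 0.13. With median centring 1 of 12 did and the median was −0.23, beside −0.37 for all tested probes. The count above 0 with loess includes Tuba1b, which was above background in HP pools alone. It also includes a Tubb5 probe that entered the test only through the HP pools. A Tubb2a probe at 0.01, also counted above 0, entered only through the control pools. Tubb2b, counted below 0, was above background in control pools alone. With the scanner software's ratio the median was 0.46, and single probes ran from −1.58 for Tubb2b to 1.34 for a Tubb2a probe. Tuba1c (Tuba6 in the array tables), an alpha-tubulin, had the only unadjusted p under 0.05 among them. Its log2 signal was 10.09, 10.15 and 10.39 in the control pools and 10.70, 10.74 and 10.70 in the HP pools. The pools did not overlap, and the HP pools were nearly equal. On the log2 scale the ratio was 0.51 ± 0.12, or 1.42-fold higher in HP (limma adjusted p = 0.197). With median centring it turned to −0.45, close to the −0.37 of all probes, and without replicate 2 (0.46) its unadjusted p was no longer under 0.05.

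The remaining alpha-tubulins were Tuba1a at 0.26 ± 0.19 (0.29, 0.65 and −0.14) and Tuba1b, Tuba2 in the tables, at 0.05 ± 0.11. Tuba1b was well above background in 0 of 3 control pools and 2 of 3 HP pools. It entered the test only through the HP pools, so its sign is no measure of direction. By measured means it was 1.04-fold higher in HP (6.50 in HP and 6.45 in control pools, limma adjusted p = 0.798). Its arrays had mixed signs (0.06, 0.12 and −0.01). Alpha-tubulin genes are close copies of one another, so a probe within coding sequence may bind more than 1 of them.

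Among the beta-tubulins, Tubb5, an abundant beta-tubulin of dividing cells, gave 0.22 ± 0.11 (0.27, 0.27 and 0.13) and, from a second probe, 0.05 ± 0.10. The second probe was well above background in 3 HP pools and 1 control pool. It entered the test only through the HP pools, so its sign is no measure of direction. Tubb2a gave 0.14, 0.12 and 0.01 from 3 probes with loess, and 0.38, 1.34 and −1.21 from the same probes with the scanner software's ratio. The probe at 0.01 and −1.21 was dim, and well above background in 2 control pools and 1 HP pool. It entered the test only through the control pools, so its sign is no measure of direction. Tubb4b, Tubb2c in the tables, was at −0.03 ± 0.11. Tubb6 was at 0.15 ± 0.22, with the widest spread of the tested tubulins (0.24, 0.59 and −0.39 on the arrays). Tubb3, best known from neurons and printed 10 times on each array, was at 0.19 ± 0.13 (0.80 with the scanner software's ratio), and its HP pools lay just above its control pools. Tubb2b stood alone below 0 on all arrays (−0.41, −0.12 and −0.07). However, it was well above background in 0 of 3 HP pools and 2 of 3 control pools. It entered the test only through the control pools, so its sign is no measure of direction. By measured means it was 1.15-fold higher in control pools (6.51 in control and 6.31 in HP pools, limma adjusted p = 0.425). With median centring Tubb3 alone among these 12 tubulin probes stayed above 0, at 0.02. Genes without a tested probe included Tuba3a, Tuba4a, Tuba8 and Tubb4a.

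The gamma-tubulin complex, which starts new microtubules, had 3 tested genes, all with loess ratios near 0. The probes of Tubg1 (mean log2 signal 6.50 in HP and 6.54 in control pools) and Tubgcp3 (6.51 and 6.46) were dim. A difference in these transcripts could therefore be missed. Tubg1, gamma-tubulin itself, was at −0.04 ± 0.12 (−0.21, 0.03 and 0.06). Tubgcp3, a core subunit, was at 0.04 ± 0.10 with nearly equal values on the arrays (0.05, 0.06 and 0.02). Tubgcp5 was at −0.05 ± 0.18, with replicates 1 and 2 on opposite sides (−0.45 and 0.28). The other 3 genes, Tubg2, Tubgcp2 and Tubgcp6, gave no tested probe.

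Folding cofactors bring new tubulin chains into the dimer. Tbcc, which acts in the final step, had log2 signals of 8.62, 7.81 and 8.44 in control pools and 8.90, 8.74 and 8.65 in HP pools. The HP pools were all above the control pools, mostly through replicate 2. The log2 ratio was 0.48 ± 0.19 (limma adjusted p = 0.303), and −0.27 with median centring, beside −0.37 for all tested probes. Tbca, which holds folded beta-tubulin, was at −0.09 ± 0.12. Tbcd and Tbce gave no tested probe.

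Among the Nek kinases, relatives of the fungal mitotic kinase NimA, Nek1 had the lowest p. Nek1 is known for roles at cilia and in the response to DNA damage. Its log2 signal was 6.53, 7.20 and 6.80 in the control pools and 6.78, 7.61 and 7.25 in the HP pools. The groups overlapped, but HP was above control on each array by 0.25, 0.41 and 0.46. Its mean log2 ratio was 0.37 ± 0.11, or 1.30-fold higher in HP (limma adjusted p = 0.238). It was −0.04 with median centring, which is 0.33 above the median of all tested probes, and 1.18 with the scanner software's ratio. Its unadjusted p was no longer under 0.05 without replicate 2 (0.36), without replicate 3 (0.33) or with replicates 2 and 3 counted as 1 (0.34). Its 3 other probes were above background in no pool.

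Nek2, which separates centrosomes by acting on the Cep250 linker, was at 0.15 ± 0.12 with HP pools above control pools, and at 0.05 with median centring. Nek9, which switches on Nek6 and Nek7 in mitosis, was below 0 on all arrays at nearly the same value (−0.21, −0.30 and −0.23; limma adjusted p = 0.316). Its HP and control levels overlapped. The other 7 Nek genes, among them Nek6 and Nek7, gave no tested probe.

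Proteins that act at microtubule ends or set their stability gave 7 tested probes for 4 genes. Mapre1 encodes EB1, which tracks growing ends, and its probes disagreed. The probe at chr2:153509112-153509171 had log2 signals of 10.40, 9.97 and 10.60 in control pools and 10.14, 9.64 and 9.72 in HP pools. The groups overlapped, with HP below control on every array and most so in replicate 3. HP over control came to a log2 ratio of −0.49 ± 0.17, or 1.40-fold lower in HP (limma adjusted p = 0.274). The unadjusted p was no longer under 0.05 without replicate 3 (−0.29), without replicate 2 (−0.57) or with replicates 2 and 3 counted as 1 (−0.43). With median centring the ratio was −1.41. The second probe of Mapre1 gave 0.04 ± 0.12 (−0.10, 0.00 and 0.23), and the difference between both probes was not tested. One further probe was above background in 1 control pool and was not tested.

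Stmn1 encodes stathmin, which binds free tubulin dimers and destabilises microtubules. Its log2 signal was 6.96, 6.66 and 7.07 in the control pools and 7.51, 7.21 and 7.10 in the HP pools. The HP pools lay above the control pools, though replicate 3 hardly differed (0.03). On the log2 scale the ratio was 0.38 ± 0.16 (limma adjusted p = 0.314). With median centring it was −0.04, above the −0.37 of all tested probes. Tacc proteins hold microtubule polymerases at the centrosome and spindle. Tacc2 had the widest spread of all members, at −0.16, 1.43 and 0.69, for a mean of 0.66 ± 0.34. Tacc1 gave −0.28, −0.21 and 0.06 from 3 probes, none under a p of 0.1. The probe at −0.28 was well above background in 3 control pools and 1 HP pool. The probe at 0.06 was so in 1 control pool and 2 HP pools. Each of these entered the test only through the group where it was brighter, so its sign is no measure of direction. The other 7 genes of this group gave no tested probe. They are Ckap5, the polymerase that works with Tacc3, Tacc3 itself, Mapre2, Mapre3, Stmn2, Stmn3 and Stmn4.

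Dynein and dynactin form the motor that pulls towards microtubule minus ends. Of the dynein genes 3 were tested, and none had an unadjusted p under 0.05. The intermediate chain Dync1i2 was below 0 on all arrays (−0.43, −0.15 and −0.09; mean −0.22 ± 0.13). The light intermediate chains Dync1li1 and Dync1li2 were at 0.21 ± 0.19 and 0.16 ± 0.12. With median centring they were at −0.07 and −0.10, above the −0.37 of all tested probes. The heavy chain Dync1h1 was not measured above background on enough arrays by any of its 3 probes, nor was the ciliary heavy chain Dync2h1 by any of its 9.

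Dynactin gave 5 tested probes for 4 genes. Of these, the Dctn6 probe and 1 of the Dctn5 probes were above background in control pools alone, so they entered the test only through the group where they were brighter, and their sign is no measure of direction. Dctn3, the small subunit of dynactin's shoulder, had log2 signals of 8.54, 8.76 and 8.44 in control pools and 7.76, 7.83 and 7.82 in HP pools. The pools did not overlap, and the HP pools were nearly equal. The log2 ratio was −0.77 ± 0.12, or 1.71-fold lower in HP (limma adjusted p = 0.182), and −1.48 with median centring. Dctn5, of the pointed end of the dynactin filament, had 2 tested probes, at −0.45 ± 0.20 and −0.34 ± 0.18, with replicate 3 lowest for each (−0.89 and −0.75) and overlapping pools. The second was above background in no HP pool and in 2 control pools. By measured means it was 1.26-fold higher in control pools (6.88 and 6.54, limma adjusted p = 0.376).

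Dctn6, the partner of Dctn5 at the pointed end, was at −0.15 ± 0.11, and with median centring at −0.27 it lay above the −0.37 of all probes. It too was above background in no HP pool and in 2 control pools. By measured means it was 1.11-fold higher in control pools (6.55 and 6.40, limma adjusted p = 0.487). Dctn4, also of the pointed end, was at −0.11 ± 0.25 with replicates 1 and 2 on opposite sides (−0.71 and 0.39), and at 0.19 without replicate 1. Dctn1, the large subunit that grips dynein and the microtubule, and Dctn2 gave no tested probe.

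The pools were also compared by their levels. For 9 members every HP pool lay above every control pool (20%, against 12.6% of all tested probes), and for 3 every HP pool lay below (6.67%, against 13.2%). The 3 were Pcnt, Nin and Dctn3. The 9 were Cep57, Cep55, Tuba1c, Tubb3, Tbcc, Nek2, Stmn1, Dync1li2 and 1 probe of Tacc1, most of them by small margins. This Tacc1 probe was well above background in 2 HP pools and 1 control pool. It entered the test only through the HP pools, so its sign is no measure of direction. No test was made of the difference between these shares and those of all probes.

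**Figure D3:**
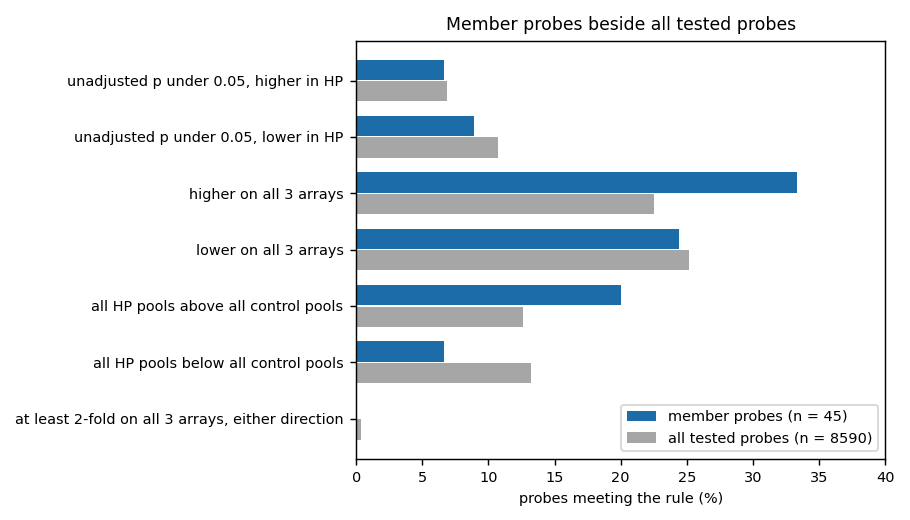
Share of the 45 tested member probes (blue) and of all 8590 tested probes (grey) that met each rule, in percent. The shares at an unadjusted p under 0.05 are 6.67% against 6.9% on the higher side and 8.89% against 10.7% on the lower side.

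Other genes of centrosomes and microtubules, from a list drawn up beside these members, gave 57 tested probes for 49 genes. Their median was −0.06, and −0.53 with median centring. At an unadjusted limma p under 0.05, 8 were higher (14%, against 6.9% of all tested probes) and 7 lower (12.3%, against 10.7%), and 0 passed adjustment. The higher count includes Bicd2, above background in 0 control and 3 HP pools, and the lower count Hook3, in 3 control and 0 HP pools. Both are named for this reason only, since they entered the test through the brighter group alone. The list was drawn up with earlier results known, so these shares are no test of the pathway. The lowest p among the lower ones belonged to Cct5, a subunit of the chaperonin that folds tubulin and actin, at −1.16 ± 0.16 (−0.84, −1.19 and −1.44). Ttl, the ligase that puts tyrosine back on alpha-tubulin, followed at −0.57 ± 0.10, with almost equal values on the arrays (−0.55, −0.59 and −0.57). Actr10, a further subunit of the dynactin pointed end, was at −0.79 ± 0.19. Actr1a, which forms the dynactin filament, lay on the other side at 0.32 ± 0.17 with mixed signs (0.59, 0.43 and −0.08). Cct2 and Tcp1, subunits of the same chaperonin as Cct5, were at −0.18 ± 0.12 and 0.03 ± 0.14. Actr1a, Cct2 and Tcp1 are named outside the rule for named genes, after their values were seen.

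On the higher side Dynll1, a light chain of dynein, was at 0.99 ± 0.17 but −0.21 with median centring. Haus6, of the augmin complex that starts microtubules on the sides of others, was at 0.68 ± 0.13 and −0.34 with median centring. The median-centred values of Dynll1 and Haus6 lay above the −0.37 of all tested probes. Cenpj, which builds centrioles, was at 0.95 ± 0.25 (1.60, 0.77 and 0.49), and at 0.66 with median centring. Its probe was well above background in 3 HP pools and 1 control pool. It thus entered the test only through the HP pools, and its sign is no measure of direction. The limma adjusted p of the 6 genes named for the lowest p ran from 0.182 to 0.219.

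**Figure D4:**
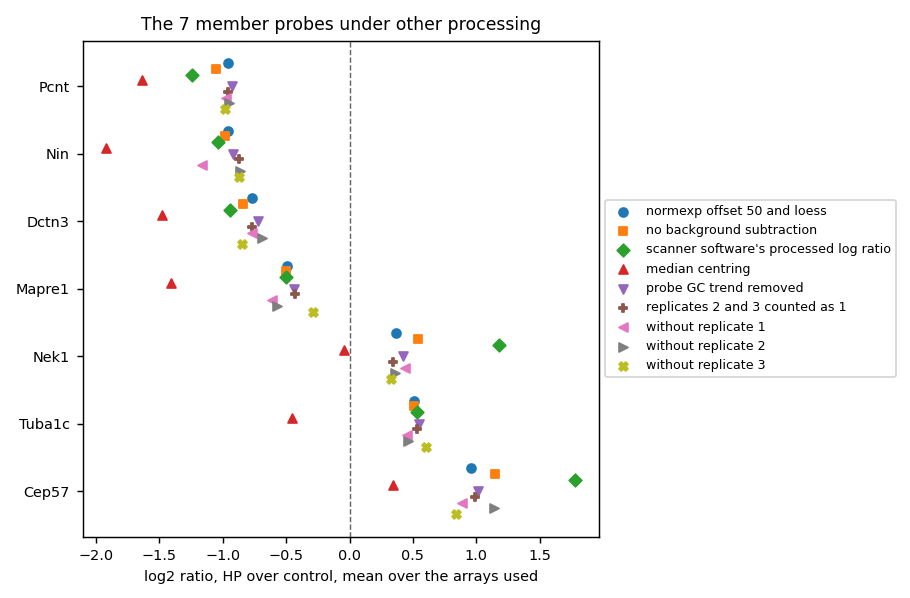
Log2 ratio of HP over control for the 7 probes with an unadjusted p under 0.05, under 9 ways of processing (symbols). Median centring lies to the left for each probe and carries Tuba1c to −0.45 and Nek1 to −0.04, while Pcnt, Nin, Dctn3 and Mapre1 stay below 0 in all those shown and Cep57 above 0.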

How the data were processed

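The submitters' processing notes name Agilent Feature Extraction 9.5.1.1 as the scan software. Its deposited tables hold, for each spot and dye, the intensity of spot and local background, neither subtracted, and a further intensity that the software had background-subtracted and dye-normalized, with surrogates where dim, per the file headers. The deposited log ratio and the authors' series table hold the log10 of Cy5 over Cy3 of those signals. Here, mean and background signals were read with limma 3.58.1 (R 4.3.3), corrected with normexp (offset 50) and normalized by loess within arrays with control spots at weight 0. Outlier spots were left out and spots of a probe averaged. An intercept on log2 (Cy5 over Cy3) was fitted to all 8590 tested probes with empirical Bayes moderation (2 residual and 2.09 prior degrees of freedom), Benjamini-Hochberg adjustment and a threshold of 0.05. Levels per pool are channel values after loess and Aquantile scaling. Each array is a pair of pools, so the fit is paired by array. Nothing says that the pools came from separate animals or days, so p-values cover no more than the variation among these pools, which may be technical. The number of arrays limits the precision. No spot was saturated. The steps were tested on simulated data. Of the 146 probes, 98 were matched to present gene symbols (RefSeq, GRCm38.p6) by accession, 43 by symbol and 5 by synonym.

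All tested members could be named. Full statistics go to up to 2 probes in each direction and role with the lowest p, and beside the members the 3 other pathway genes with the lowest p in each direction are given. The members and lists were chosen with earlier results of these data known. In all, 16 other settings were tried.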

Additional observations from a re-analysis of the deposited data

How the results depend on the processing

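Over 16 other settings, Pcnt, Nin and Dctn3 kept their direction and an unadjusted limma p under 0.05 in every one, with log2 ratios of −1.64 to −0.93, −1.92 to −0.86 and −1.48 to −0.69. Cep57 did so in 15 (0.34 to 1.78), Tuba1c in 11, Nek1 in 9 and Mapre1 in 5. These settings are not separate checks. Those that change only the filter, the moderation or the pairing keep the same log ratios. The series table repeats the scanner software's ratios. Median centring turned the sign of Nek1 (−0.04, though 0.33 above the median of all tested probes) and of Tuba1c (−0.45, −0.08 relative to it). It gave 5 members past adjustment, and for unadjusted p under 0.05 it gave 0 higher and 14 lower, with 0 higher and 28 lower on all arrays, and a median of −0.27, since it leaves the median of all tested probes at −0.37. The members' median was 0.11 with offset 0, 0.21 with the scanner's ratios and with the series table, and 0.14 for probes above background in both channels on all arrays, where 7 of 29 were lower on all arrays. Without the filter on dim probes, which brings in all 146, 5 were higher at an unadjusted p under 0.05, and 29 were higher and 24 lower on all arrays. The higher count was 1 with trended and robust moderation and 5 with array weights; the cause was not tested. Leaving out each replicate gave 1 to 4 higher and 3 to 5 lower members at an unadjusted p under 0.05, 15 to 20 higher and 14 to 15 lower on the arrays left, a median of 0.02 to 0.05, and 0 past adjustment. The lone higher member was reached without replicate 2. Separate channels with no replicate block moved no count past 1.5 times. Dim signals limit the ratios of the 16 tested members that were not above background in both channels on all arrays.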
